A study of Mus musculus with 4 samples.

Results

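The 10 neutrophil granule genes described here are Camp, Ltf, Ngp, Lcn2, Mmp8, Mmp9, Chil3, Retnlg, S100a8 and S100a9. They were taken by symbol from the list of 54456 gene symbols counted in each library, and all 10 were found. The study sequenced liver non-parenchymal cells, the cells other than hepatocytes, by droplet-based 10x Genomics 3′ single-cell RNA-seq. All mice were C57BL/6J and 30 weeks old, and each group is represented by 1 library. The study set mice with or without a high fat diet (HFD) and physical exercise side by side, and the libraries analysed are labelled HFD_EXE, HFD_sed and S. The labels do not spell out EXE, sed or S and name no length of diet or exercise, nor how many animals a library holds. A library labelled E was not analysed here. With 1 library per group there was no test between groups, and the differences below compare these 3 libraries.

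Neutrophils pack antimicrobial proteins into granules that are filled in a fixed order while the cell matures in the bone marrow. The specific granules hold cathelicidin (Camp), lactoferrin (Ltf), the cystatin-like Ngp, lipocalin-2 (Lcn2) and the collagenase Mmp8, and their genes are transcribed chiefly at the myelocyte and metamyelocyte stages under the transcription factor C/EBPε. The gelatinase granules, made later, hold the gelatinase Mmp9. S100a8 and S100a9 encode the subunits of calprotectin, a calcium- and zinc-binding complex of the neutrophil cytosol. Circulating and tissue neutrophils keep much of the protein after the granule genes have been switched off. Chil3 encodes the chitinase-like protein Ym1 and Retnlg a resistin-like secreted protein, and Chil3 is also known from mouse classical monocytes and alternatively activated macrophages.

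The promoters of the specific granule genes are shown because Camp, Ltf and Ngp were found together in the same few cells. RefSeq promoters, from 250 bases before to 50 bases after the annotated start, were matched by symbol for 9 of the 10 genes, with Mmp9 not matched. The coordinates are those of build GRCm38.p6, whereas the deposited counts were made on GRCm39. Camp lies on the minus strand at chr9:109849407-109849706, Ltf on the plus strand at chr9:111019042-111019341 and Ngp on the plus strand at chr9:110419558-110419857. Lcn2 lies on the minus strand at chr2:32387690-32387989 and Mmp8 on the plus strand at chr9:7558179-7558478. Each is printed 5′ to 3′ on its own strand, and capitals mark matches to TTGCNNAA, a core form of the site of C/EBP factors, read on both strands.
Camp: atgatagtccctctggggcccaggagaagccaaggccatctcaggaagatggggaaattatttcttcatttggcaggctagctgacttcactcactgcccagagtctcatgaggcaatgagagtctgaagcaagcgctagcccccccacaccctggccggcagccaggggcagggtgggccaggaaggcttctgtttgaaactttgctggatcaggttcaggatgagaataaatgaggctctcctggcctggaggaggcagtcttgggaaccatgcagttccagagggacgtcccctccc
Ltf: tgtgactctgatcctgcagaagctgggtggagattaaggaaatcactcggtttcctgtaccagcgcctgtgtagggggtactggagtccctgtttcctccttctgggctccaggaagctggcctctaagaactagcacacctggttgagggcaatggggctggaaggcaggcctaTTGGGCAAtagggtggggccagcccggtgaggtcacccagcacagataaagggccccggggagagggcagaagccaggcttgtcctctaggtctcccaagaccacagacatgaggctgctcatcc
Ngp: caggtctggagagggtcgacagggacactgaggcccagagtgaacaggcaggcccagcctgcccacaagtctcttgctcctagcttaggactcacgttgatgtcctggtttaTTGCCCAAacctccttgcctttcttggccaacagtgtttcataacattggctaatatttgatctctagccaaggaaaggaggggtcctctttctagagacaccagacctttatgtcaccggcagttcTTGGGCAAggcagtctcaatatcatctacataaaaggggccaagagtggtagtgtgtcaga
Lcn2: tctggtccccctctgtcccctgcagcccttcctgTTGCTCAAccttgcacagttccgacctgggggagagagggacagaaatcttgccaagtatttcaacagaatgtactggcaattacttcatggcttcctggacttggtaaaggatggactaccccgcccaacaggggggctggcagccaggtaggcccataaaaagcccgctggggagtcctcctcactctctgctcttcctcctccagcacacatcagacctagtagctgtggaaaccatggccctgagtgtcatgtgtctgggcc
Mmp8: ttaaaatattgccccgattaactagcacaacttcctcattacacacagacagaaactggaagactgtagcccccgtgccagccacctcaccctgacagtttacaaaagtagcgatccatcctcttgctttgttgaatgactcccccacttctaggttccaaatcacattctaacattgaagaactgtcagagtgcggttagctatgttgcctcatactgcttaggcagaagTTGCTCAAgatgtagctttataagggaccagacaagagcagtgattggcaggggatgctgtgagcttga

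The C/EBP core form was present in 6 of the 9 matched promoters, against 10.8% of the 32851 RefSeq promoters of the same length. Its first base lay at position -75 of Ltf, at -138 and -11 of Ngp, at -216 of Lcn2, at -19 of Mmp8, at -246 of Retnlg and at -236 of S100a9, counted from the annotated start. No match was found in the windows of Camp, Chil3 and S100a8. AGGAAGT, a core form of the site of the myeloid factor PU.1, was found on either strand at -221 of Mmp8, at -60 of Chil3 and at -172 of S100a8, that is in 3 of the 9 windows, against 9.35% of all promoters. No match of one motif overlapped a match of the other. A match in these letters is a description of the sequence only.

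The libraries held 11280 (HFD_EXE), 11752 (HFD_sed) and 11660 (S) barcodes, where the labels state that 5000 to 6000 cells were captured per sample, and 60901242, 63456399 and 84666844 unique molecular identifiers (UMIs). After filtering and removal of called doublets, 10172 HFD_EXE, 10740 HFD_sed and 10212 S cells remained. Hepatocytes, which the label leaves out, made up 3.46% of kept HFD_EXE cells, 0.922% of HFD_sed cells and 12.7% of S cells. HFD_EXE shared 43 barcodes with HFD_sed and 30 with S, and HFD_sed shared 30 with S. Clusters were built without the 10 genes and named from fixed markers, so each class is a neutrophil-like, monocyte-like or similar class, called below by the plain name. Neutrophils numbered 622 in HFD_EXE (6.11% of kept cells), 479 in HFD_sed (4.46%) and 669 in S (6.55%), with median depths of 2940.5, 2458 and 2993 UMIs per cell. Levels are given in CPM, the UMIs of a gene scaled to the UMI total of the cell class. All 12 neutrophil markers, among them Csf3r, Cxcr2 and Ly6g, were detected in every library, and their summed level was 12759 CPM in HFD_EXE, 11828 CPM in HFD_sed and 12154 CPM in S. Of the 9 neutrophil precursor markers, 4 had a UMI in HFD_EXE neutrophils, 5 in HFD_sed and 4 in S. Their summed levels were 15.8, 27.7 and 22.6 CPM. Elane, Ctsg, Ms4a3 and Fcnb had no UMI in the neutrophils of any library. Markers of other cells were also present. Summed over 10 markers of liver sinusoidal endothelial cells (LSECs), all with a UMI, they stood at 2127 CPM in HFD_EXE neutrophils, 759 CPM in HFD_sed neutrophils and 792 CPM in S neutrophils, and over 8 hepatocyte markers at 921, 627 and 2134 CPM. The part of this RNA in the results was not tested.

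The neutrophils fell into 2 clusters that the libraries filled unequally. Cluster 7, led by the neutrophil genes Cxcr2, Csf3r and Stfa2l1, held 602 of the 622 HFD_EXE neutrophils (96.8%), 183 of the 479 HFD_sed neutrophils (38.2%) and 646 of the 669 S neutrophils (96.6%). Cluster 21, led by the inflammatory genes Acod1, Il36g, Slc7a11 and Cxcl2, held 20 HFD_EXE, 296 HFD_sed and 23 S neutrophils. A level over all neutrophils therefore describes mostly cluster 7 in HFD_EXE and S and mostly cluster 21 in HFD_sed.

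Over all neutrophils, Camp, Ltf and Ngp were higher in HFD_sed than in S, while Mmp8, Mmp9, Chil3 and Retnlg were lower, and Lcn2, S100a8 and S100a9 stayed within 1.5-fold. A gene was called where its CPM differed by at least 1.5-fold, the exact conditional 95% interval of the ratio excluded no change, and the libraries compared held at least 20 UMIs together. On this rule 3 of the 10 genes were called higher in HFD_sed over S and 4 lower, where 15.9% of the 8088 genes measured in neutrophils were called higher and 17% lower. For HFD_EXE over HFD_sed, 3 genes were higher (Mmp8, Mmp9 and Retnlg) and 3 lower (Camp, Ltf and Ngp), where 18.3% of 8111 genes were called higher and 12.8% lower. For HFD_EXE over S, 3 genes were higher (Camp, Ltf and Ngp) and 2 lower (Chil3 and Retnlg), where 12.1% of 8691 genes were called higher and 6.95% lower. The 3 comparisons share libraries and are not independent. The median log2 ratio over the 10 genes was -0.56, 0.13 and -0.05 for HFD_sed over S, HFD_EXE over HFD_sed and HFD_EXE over S, and that over all measured genes was -0.09, 0.15 and 0.04. All intervals cover counting error only.

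**Figure D1:**
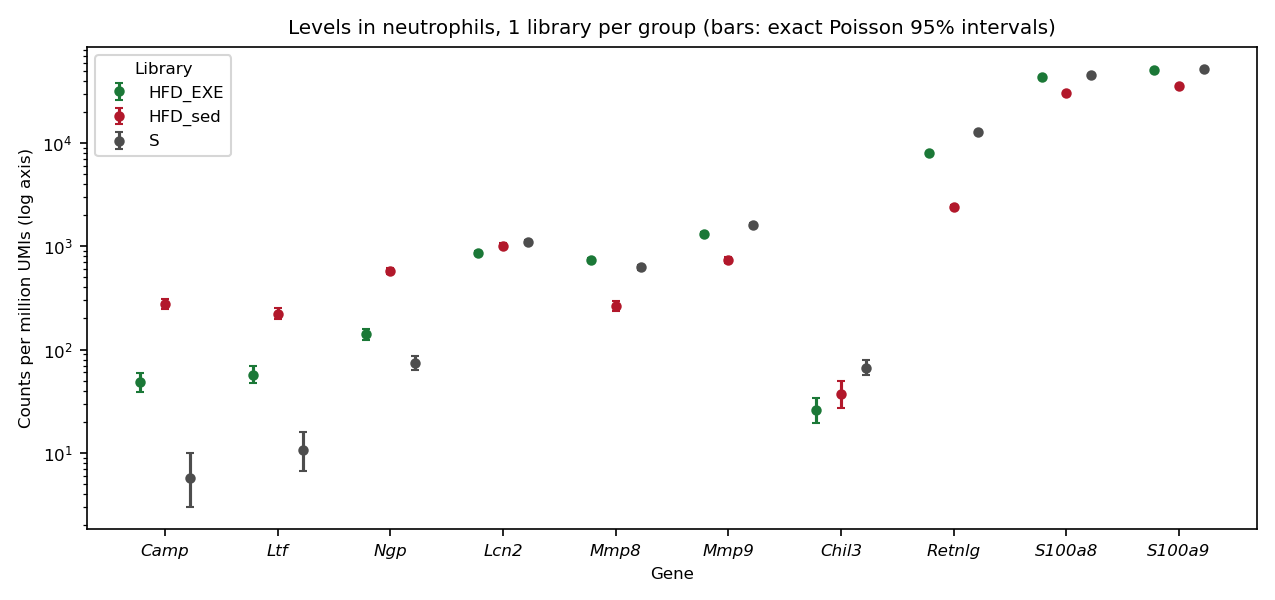
Level of each of the 10 genes in neutrophils, in CPM on a log axis, with 1 point per library (HFD_EXE, HFD_sed, S from left to right within a gene) and exact Poisson 95% intervals as bars. Camp, Ltf and Ngp stand highest in HFD_sed, Mmp8, Mmp9, Retnlg, S100a8 and S100a9 stand lowest there, and Chil3 stands highest in S.

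Camp, the precursor of the cathelicidin antimicrobial peptide, had 95 UMIs in HFD_EXE neutrophils (48.4 CPM), 349 in HFD_sed neutrophils (276 CPM) and 12 in S neutrophils (5.76 CPM). Its log2 ratio was 5.58 for HFD_sed over S (95% interval 4.76 to 6.55), -2.51 for HFD_EXE over HFD_sed (-2.85 to -2.18) and 3.07 for HFD_EXE over S (2.20 to 4.07). The intervals of the CPM did not overlap, but they treat UMIs as independent. These totals came from 4 of 622 HFD_EXE neutrophils, 6 of 479 HFD_sed neutrophils and 2 of 669 S neutrophils. The shares of cells were 0.643% (0.175% to 1.64%), 1.25% (0.461% to 2.71%) and 0.299% (0.0362% to 1.08%), and their intervals overlapped. A single cell held 92 of the 95 UMIs in HFD_EXE and 11 of the 12 in S, and the top 5 cells held 99.7% in HFD_sed.

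Ltf, which encodes the iron-binding protein lactoferrin, had 112 UMIs in HFD_EXE neutrophils (57.1 CPM), 282 in HFD_sed neutrophils (223 CPM) and 22 in S neutrophils (10.6 CPM). The log2 ratio was 4.40 for HFD_sed over S (3.77 to 5.10), -1.97 for HFD_EXE over HFD_sed (-2.29 to -1.65) and 2.44 for HFD_EXE over S (1.77 to 3.17). It was detected in 7 HFD_EXE, 24 HFD_sed and 6 S neutrophils, with no more than 1 UMI in 6, 13 and 4 of them. The top 5 cells held 98.2% of its UMIs in HFD_EXE, 90.8% in HFD_sed and 95.5% in S.

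Ngp, which encodes a granule protein of the cystatin and cathelicidin family, had 275 UMIs in HFD_EXE neutrophils (140 CPM), 729 in HFD_sed neutrophils (577 CPM) and 154 in S neutrophils (73.9 CPM). The log2 ratio was 2.96 for HFD_sed over S (2.71 to 3.22), -2.04 for HFD_EXE over HFD_sed (-2.25 to -1.84) and 0.92 for HFD_EXE over S (0.63 to 1.22). The share of neutrophils with a UMI ran the other way, at 2.89% in HFD_EXE (18 cells), 1.04% in HFD_sed (5 cells) and 3.74% in S (25 cells), and the intervals of these shares overlapped between HFD_EXE and both other libraries. The 5 HFD_sed cells held all 729 UMIs, between 64 and 231 each, whereas 13 of the 18 HFD_EXE cells and 19 of the 25 S cells held 1 UMI. B cells, which should lack these genes, had 0 Camp UMIs in every library, which at a floor of 3 counts allows a share of cells with a UMI of up to 0.611% of 491 HFD_EXE cells, 0.297% of 1010 HFD_sed cells and 0.436% of 688 S cells, and they held 1 Ltf UMI (HFD_sed) and 1 Ngp UMI (HFD_EXE) in all.

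Camp, Ltf and Ngp were detected together in 1 HFD_EXE neutrophil (0.161%, exact 95% interval 0.00407% to 0.893%), 5 HFD_sed neutrophils (1.04%, 0.340% to 2.42%) and 1 S neutrophil (0.149%, 0.00378% to 0.830%). No neutrophil held exactly 2 of the 3 genes. These cells, all in cluster 7, carried 89.4% of the summed UMIs of the 3 genes in HFD_EXE neutrophils (431 of 482), 98.0% in HFD_sed (1333 of 1360) and 72.3% in S (136 of 188). Single detection was otherwise the rule, with Ngp alone in 17 HFD_EXE, 0 HFD_sed and 24 S neutrophils, Ltf alone in 6, 19 and 5, and Camp alone in 3, 1 and 1. If the genes were spread over cells independently, the product of their shares would put Camp and Ngp together in 0.116 HFD_EXE, 0.0626 HFD_sed and 0.0747 S neutrophils, where 1, 5 and 1 were seen. After each neutrophil was thinned to 1000 UMIs, the 3 genes were still seen together in 1 of 612 HFD_EXE, 4 of 457 HFD_sed and 1 of 664 S neutrophils, with 10, 22 and 5 shallower cells left out.

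**Figure D2:**
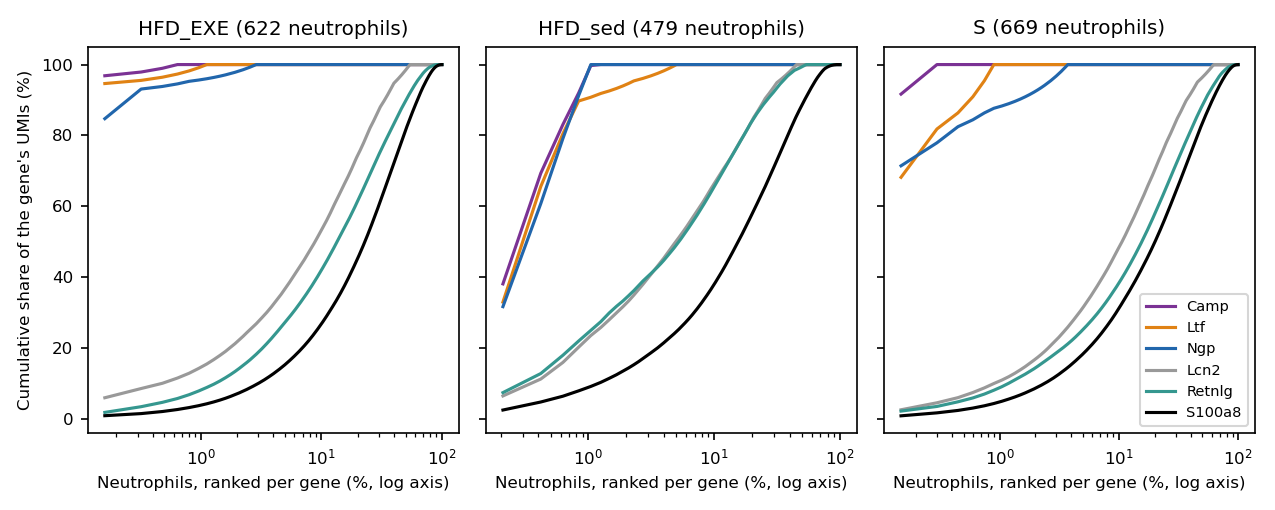
Cumulative share of a gene's UMIs (%) against the share of neutrophils (%, log axis), with cells ranked by that gene, for 6 genes in the HFD_EXE, HFD_sed and S libraries. Camp, Ltf and Ngp reach most of their UMIs within about the first percent of cells in each library, while 50% of the S100a8 UMIs take 23.2% (HFD_EXE), 15.7% (HFD_sed) and 20.2% (S) of the neutrophils.

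The cells with all 3 genes were deep, at 7010 UMIs for the HFD_EXE cell, 4564 to 6901 UMIs for the 5 HFD_sed cells and 10618 UMIs for the S cell. The HFD_EXE cell held 92 Camp, 106 Ltf and 233 Ngp UMIs. The 5 HFD_sed cells held 133, 109, 48, 31 and 27 Camp UMIs, and in the same order 93, 92, 26, 42 and 3 Ltf UMIs and 231, 212, 134, 88 and 64 Ngp UMIs. The S cell held 11 Camp, 15 Ltf and 110 Ngp UMIs. Each carried 6 to 12 of the 12 neutrophil markers and a doublet score of 0.0403 or less.

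The other genes measured in these cells were set against the remaining neutrophils of the same library, as a description of 1, 5 and 1 cells. Lcn2 stood at 14408 CPM in the HFD_EXE cell, against 813 CPM in the other HFD_EXE neutrophils, at 9804 against 817 CPM in HFD_sed and at 4238 against 1079 CPM in S. Wfdc21, a whey acidic protein family gene, stood at 5849 against 754 CPM in HFD_EXE, 5941 against 708 CPM in HFD_sed and 2920 against 1576 CPM in S. Cd177, a surface glycoprotein stored in specific granules, stood at 1854 against 29.7 CPM, 1385 against 12.1 CPM and 1130 against 51.6 CPM in the same order of libraries. Each of these granule genes, picked after their values were seen, was thus higher in the cells with Camp, Ltf and Ngp in all 3 libraries. Cybb, the oxidase subunit gp91phox, was higher too, at 3138 against 51.2 CPM in HFD_EXE, 2770 against 335 CPM in HFD_sed and 377 against 81.0 CPM in S. Not every specific granule gene was higher. Olfm4 had no UMI in these cells, though other neutrophils of each library held its UMIs.

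Several genes abundant in the other neutrophils were sparse in the HFD_EXE and HFD_sed cells. Il1b, the interleukin-1β gene, stood at 143 CPM in the HFD_EXE cell against 8362 CPM in the other neutrophils, at 182 against 10668 CPM in HFD_sed and at 3202 against 8497 CPM in S. Srgn, the granule proteoglycan serglycin, had 0 UMIs in the HFD_EXE cell against 5532 CPM in the other neutrophils, 547 against 7364 CPM in HFD_sed and 1224 against 4542 CPM in S. Csf3r, the receptor of granulocyte colony-stimulating factor, stood at 285 against 2664 CPM in HFD_EXE and 182 against 1727 CPM in HFD_sed, but at 1978 against 2784 CPM in S. Cebpe, which encodes C/EBPε, had 4 and 2 UMIs in 2 of the HFD_sed cells and 0 in the remaining cells. The azurophil granule genes Mpo, Elane and Prtn3, which are transcribed earlier, had 0 UMIs in all of these cells, and the proliferation gene Mki67 had 1 UMI in a single HFD_sed cell.

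In HFD_sed, 2 further cells with all 3 genes lay in the Kupffer class, the resident liver macrophages. They held 33 and 25 Camp, 27 and 13 Ltf and 45 and 32 Ngp UMIs among 8817 and 6098 UMIs. They also held 26 and 21 UMIs of the Kupffer gene Clec4f, 37 and 19 of Cd5l and 32 and 22 of C1qa, which were at 0 or 1 UMI in the HFD_sed neutrophils with all 3 genes, and 7 and 6 of the 12 neutrophil markers. Their doublet scores were 0.107 and 0.111, under the threshold of 0.219 that was used. None of the 295 HFD_EXE, 328 HFD_sed and 403 S cells removed as doublets held all 3 genes.

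**Figure D3:**
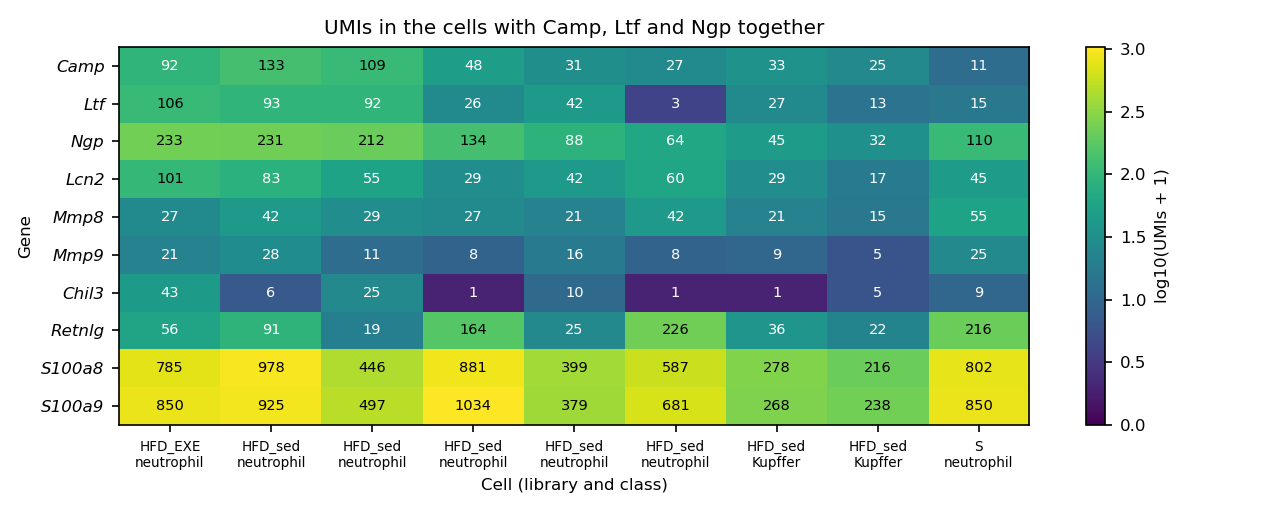
UMIs of the 10 genes in each of the 9 cells with Camp, Ltf and Ngp together, 1 column per cell (library and class below) and 1 row per gene, coloured by log10(UMIs + 1). The 2 Kupffer-class cells of HFD_sed hold 216 to 278 UMIs of S100a8 and of S100a9, below the 379 to 1034 of the neutrophils shown.

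Because so few cells carried them, the calls for Camp, Ltf and Ngp were recomputed without the 7 neutrophils that held all 3 genes, an alternative chosen after seeing the data. Of the 3 genes, only Ltf was then called higher in HFD_sed over S, at a log2 ratio of 2.64 (1.40 to 4.09), on 26 UMIs in HFD_sed and 7 in S. These lay mostly in cluster 21, 25 in HFD_sed (32.7 CPM there) and 5 in S (70.0 CPM there), with 1 and 2 in cluster 7. Ltf was thus not higher in HFD_sed within cluster 21, and the part of the cluster shares in the call was not tested. Camp was left with 3, 1 and 1 UMIs and Ngp with 42, 0 and 44 UMIs in HFD_EXE, HFD_sed and S. The call of Ngp was thereby turned round, to lower in HFD_sed over S and higher in HFD_EXE over HFD_sed, and that of Ltf stayed lower in HFD_EXE over HFD_sed at -2.78 (-4.35 to -1.46). For HFD_EXE over S none of the 3 genes was called, with Ngp at 0.02 (-0.63 to 0.66). Over the 10 genes 1 was then called higher and 7 lower in HFD_sed over S, where 16.1% of 8058 genes were called higher and 17.2% lower. For HFD_EXE over HFD_sed 5 were higher and 1 lower, where 18.5% of 8075 genes were called higher and 13.2% lower, and for HFD_EXE over S 0 were higher and 2 lower, where 12% of 8673 genes were called higher and 7% lower. Of the 51 Chil3 UMIs in HFD_EXE neutrophils 43 lay in the single cell with all 3 genes, as did 43 of 47 in the 5 HFD_sed cells.

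By a fixed rule, the genes outside the list whose level followed the summed Camp, Ltf and Ngp most closely in all 3 libraries included Cybb, Ly6c2, Ifitm6 and Ly6g, among 4145 eligible genes. Their lowest Pearson correlation over the neutrophils of a library was 0.139 for Cybb, 0.132 for Ly6c2, 0.120 for Ifitm6 and 0.0893 for Ly6g. The cells of a library share its depth and free RNA, the correlations rest on the few cells above, and values this low in sparse counts are given as a description only.

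Lcn2, whose product binds bacterial iron carriers, differed little over all neutrophils. It had 1690 UMIs in HFD_EXE neutrophils (862 CPM), 1279 in HFD_sed neutrophils (1012 CPM) and 2281 in S neutrophils (1095 CPM). Its log2 ratio was -0.11 for HFD_sed over S (-0.21 to -0.01), -0.23 for HFD_EXE over HFD_sed (-0.34 to -0.13) and -0.35 for HFD_EXE over S (-0.44 to -0.25), so no comparison reached the fold used. It was detected in 54.3% of HFD_EXE, 45.1% of HFD_sed and 62.5% of S neutrophils, against 1.43%, 0.990% and 0.872% of B cells, whose median depths were 3440, 2866.5 and 3652.5 UMIs.

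Mmp8, the neutrophil collagenase, had 1444 UMIs in HFD_EXE neutrophils (736 CPM), 335 in HFD_sed neutrophils (265 CPM) and 1307 in S neutrophils (627 CPM). The log2 ratio was -1.24 for HFD_sed over S (-1.42 to -1.07), 1.47 for HFD_EXE over HFD_sed (1.30 to 1.65) and 0.23 for HFD_EXE over S (0.12 to 0.34). HFD_sed was thus the low library. The share of neutrophils with a UMI was 63.2% in HFD_EXE, 16.7% in HFD_sed and 59.5% in S, and 36.9%, 9.19% and 35.5% after thinning to 1000 UMIs. In HFD_sed the top 5 cells held 48.1% of the Mmp8 UMIs, against 7.83% in HFD_EXE and 12.6% in S.

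Mmp9, the gelatinase of the later granules, had 2585 UMIs in HFD_EXE neutrophils (1318 CPM), 937 in HFD_sed neutrophils (741 CPM) and 3367 in S neutrophils (1616 CPM). The log2 ratio was -1.12 for HFD_sed over S (-1.23 to -1.02), 0.83 for HFD_EXE over HFD_sed (0.72 to 0.94) and -0.29 for HFD_EXE over S (-0.37 to -0.22). It was spread over most cells, with a UMI in 92.0% of HFD_EXE, 56.4% of HFD_sed and 93.3% of S neutrophils, and a median of 4, 1 and 4 UMIs per cell.

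Retnlg, a resistin-like gene, had a wider gap between HFD_sed and the other libraries than Mmp9, S100a8 or S100a9. It had 15573 UMIs in HFD_EXE neutrophils (7941 CPM), 3043 in HFD_sed neutrophils (2407 CPM) and 26814 in S neutrophils (12869 CPM). The log2 ratio was -2.42 for HFD_sed over S (-2.47 to -2.36), 1.72 for HFD_EXE over HFD_sed (1.67 to 1.78) and -0.70 for HFD_EXE over S (-0.73 to -0.67). The median neutrophil held 14 UMIs in HFD_EXE, 1 in HFD_sed and 24 in S, and the cell with the most held 287, 226 and 593. It was detected in 90.2%, 53.9% and 94.6% of neutrophils, against 3.87%, 0.693% and 1.74% of B cells.

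Chil3 was rare in neutrophils, with 51 UMIs in HFD_EXE (26.0 CPM), 47 in HFD_sed (37.2 CPM) and 139 in S (66.7 CPM). The log2 ratio was -0.84 for HFD_sed over S (-1.35 to -0.36), -0.52 for HFD_EXE over HFD_sed (-1.12 to 0.09) and -1.36 for HFD_EXE over S (-1.85 to -0.89). It was detected in 9 HFD_EXE neutrophils (1.45%), 9 HFD_sed neutrophils (1.88%) and 55 S neutrophils (8.22%), against 0.611%, 1.98% and 0.145% of B cells. The HFD_sed share was below that of B cells, but 43 of its 47 UMIs lay in the 5 cells with Camp, Ltf and Ngp and 4 in the others. Without these 5 cells the HFD_sed level was 3.23 CPM.

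S100a8 and S100a9 together made up 9.45% of all neutrophil UMIs in HFD_EXE, 6.66% in HFD_sed and 9.79% in S, and the median cell gave 8.14%, 4.44% and 7.95%. S100a8 had 86074 UMIs in HFD_EXE (43890.3 CPM), 38902 in HFD_sed (30777 CPM) and 95869 in S (46009.6 CPM). Its log2 ratio was -0.58 for HFD_sed over S (-0.60 to -0.56), 0.51 for HFD_EXE over HFD_sed (0.49 to 0.53) and -0.07 for HFD_EXE over S (-0.08 to -0.05). S100a9 followed it, at 50646 CPM in HFD_EXE, 35780.5 CPM in HFD_sed and 51873 CPM in S, with log2 ratios of -0.54, 0.50 and -0.03 in the same order. Neither was called, though both lay just inside the fold for HFD_sed over S. Both were called lower there once the 10 genes were left out of the total, S100a8 at -0.65 and S100a9 at -0.60, and also without the neutrophils that held Camp, Ltf and Ngp, at -0.67 and -0.62. The S100a8 to S100a9 ratio of UMIs hardly moved, at 0.867 in HFD_EXE, 0.860 in HFD_sed and 0.887 in S.

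Within cluster 7 alone, a split chosen after seeing the data, the gaps of Mmp8, Mmp9, Retnlg, S100a8 and S100a9 between HFD_sed and S were smaller than over all neutrophils, and those of Camp, Ltf and Ngp were wider, at 6.87, 5.93 and 4.25. The cluster holds all 7 neutrophils with Camp, Ltf and Ngp together, 5 of them among its 183 HFD_sed cells. The values of Lcn2, Mmp8, Mmp9, Retnlg, S100a8 and S100a9 are given with and without them. S100a8 stood at 44648 CPM in HFD_EXE, 45134 CPM in HFD_sed and 47059 CPM in S, and S100a9 at 51560.2, 55268 and 53118 CPM. Without the 7 cells S100a8 stood at 44400 CPM in HFD_EXE, 40780 CPM in HFD_sed and 46908 CPM in S. S100a9 then stood at 51303, 51027 and 52975 CPM, so HFD_sed was no longer the highest. Mmp8 stood at 756 CPM in HFD_EXE, 599 CPM in HFD_sed and 647 CPM in S, and Mmp9 at 1339, 1335 and 1643 CPM, with no call in any comparison for either gene. Mmp9 stood at 1333 CPM in HFD_EXE, 1262 CPM in HFD_sed and 1640 CPM in S once the 7 cells were left out. Without the 7 cells Mmp8 stood at 745 CPM in HFD_EXE, 293 CPM in HFD_sed and 623 CPM in S and was called, at -1.09 for HFD_sed over S (-1.35 to -0.84) and 1.35 for HFD_EXE over HFD_sed (1.09 to 1.61). It was then detected in 65.1% of HFD_EXE, 31.5% of HFD_sed and 61.1% of S cells of the cluster, so HFD_sed was again the low library. Lcn2 stood at 880 CPM in HFD_EXE, 1349 CPM in HFD_sed and 1104 CPM in S, and was called lower in HFD_EXE over HFD_sed at -0.62 (-0.75 to -0.49). Without the 7 cells that call was lost, with Lcn2 at 830 CPM in HFD_EXE, 857 CPM in HFD_sed and 1088 CPM in S and a log2 ratio of -0.05 (-0.20 to 0.11). Retnlg kept its order, at 8151 CPM in HFD_EXE, 4981 CPM in HFD_sed and 13278 CPM in S, with a log2 ratio of -1.41 for HFD_sed over S (-1.47 to -1.36), and of -1.67 (-1.74 to -1.61) without the 7 cells. In this cluster 3 of the 10 genes were called higher in HFD_sed over S (Camp, Ltf and Ngp) and 1 lower (Retnlg), where 6.47% of 7197 genes were called higher and 6.88% lower. For HFD_EXE over HFD_sed 1 gene was higher (Retnlg) and 5 were lower (Camp, Ltf, Ngp, Lcn2 and Chil3), where 9.7% of 7330 genes were called higher and 5.21% lower. For HFD_EXE over S 3 were higher and 2 lower, as over all neutrophils, where 12.7% of 8585 genes were called higher and 6.73% lower. Without the 7 cells, an alternative also chosen after seeing the data, 0 genes were called higher in HFD_sed over S and 4 lower (Ngp, Mmp8, Chil3 and Retnlg), where 6.6% of 7163 genes were called higher and 6.92% lower. For HFD_EXE over HFD_sed 3 were then higher (Ngp, Mmp8 and Retnlg) and 0 lower, where 9.73% of 7288 genes were called higher and 5.19% lower. Chil3 then had 8 UMIs in HFD_EXE, 0 in HFD_sed and 115 in S cells of the cluster, and for HFD_EXE over S 0 genes were higher and 2 lower (Chil3 and Retnlg), where 12.7% of 8568 genes were called higher and 6.82% lower.

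Lcn2, Mmp8, Mmp9, Retnlg, S100a8 and S100a9 were lower in cluster 21 than in cluster 7 in every library. Chil3 was not, at 210 CPM in S on 15 UMIs, against 61.6 CPM in cluster 7 of S. Nor was Ltf in S, at 70.0 against 8.45 CPM. Without the cells with all of Camp, Ltf and Ngp, Ltf was higher in cluster 21 in every library. It then stood at 36.4 against 2.11 CPM in HFD_EXE, 32.7 against 2.12 CPM in HFD_sed and 70.0 against 0.999 CPM in S. The cluster 7 levels rest on 4, 1 and 2 UMIs, and the HFD_EXE intervals overlapped. Within cluster 21 S100a8 stood at 17590.2 CPM in HFD_EXE, 21414 CPM in HFD_sed and 16458 CPM in S, and S100a9 at 18901, 23073 and 16808 CPM. Retnlg stood at 656 CPM in HFD_EXE, 729 CPM in HFD_sed and 1344 CPM in S, and Mmp8 at 54.6, 47.1 and 70.0 CPM on 3, 36 and 5 UMIs. Mmp9 stood at 601 CPM in HFD_EXE, 354 CPM in HFD_sed and 840 CPM in S. Lcn2 stood at 237 CPM in HFD_EXE on 13 UMIs, 792 CPM in HFD_sed (730 to 858) and 826 CPM in S. In HFD_sed, cluster 7 without the cells with all of Camp, Ltf and Ngp stood at 857 CPM (775 to 945), so these intervals overlapped. Ngp had no UMI in this cluster, Camp had 1 UMI in HFD_sed and none elsewhere, and Ltf had 2 UMIs in HFD_EXE, 25 in HFD_sed and 5 in S. Only 20 HFD_EXE and 23 S cells lay in the cluster, against 296 HFD_sed cells. For HFD_sed over S no gene was called higher and 2 were called lower (Mmp9 and Retnlg), where 4.36% of 4244 genes were called higher and 6.39% lower. For HFD_EXE over HFD_sed Mmp9 was higher and Lcn2 lower, where 5.32% of 4157 genes were called higher, 4.55% lower and 9.86% in either direction. For HFD_EXE over S none was higher and Lcn2 and Retnlg were lower, where 8.57% of 992 genes were called higher and 10.4% lower.

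**Figure D4:**
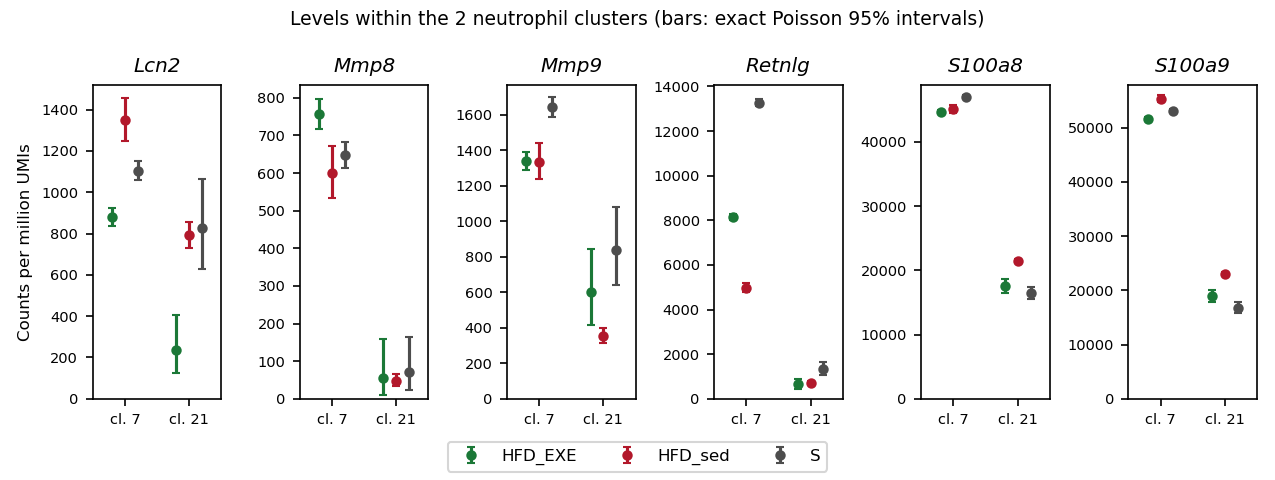
Levels of 6 genes in CPM (linear axes from 0) within cluster 7 and cluster 21, with 1 point per library (HFD_EXE, HFD_sed, S from left to right) and exact Poisson 95% intervals. The cells with all of Camp, Ltf and Ngp are included. Every gene shown is lower in cluster 21 than in cluster 7 of the same library. Retnlg keeps a gap between libraries within cluster 7 (8151 CPM in HFD_EXE, 4981 CPM in HFD_sed, 13278 CPM in S).

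Among the genes found in many cells, pairs were detected together about as often as the product of their shares in HFD_EXE and S, and more often in HFD_sed. S100a8 and S100a9 were both seen in 615 of 622 HFD_EXE, 437 of 479 HFD_sed and 657 of 669 S neutrophils, where the product of the shares gives 612, 421 and 653. Mmp8 and Retnlg were both seen in 376 HFD_EXE, 69 HFD_sed and 393 S neutrophils, where the product gives 354, 43.1 and 377. The ratio of seen to product for this pair was 1.06 in HFD_EXE, 1.60 in HFD_sed and 1.04 in S, and 1.12, 1.84 and 1.06 after thinning. For Mmp9 and Retnlg it was 1.05, 1.44 and 1.02 after thinning. HFD_sed, the library divided between the clusters, stood highest for both pairs. The ratio cannot exceed the inverse of the larger share of a pair, so it has less room where a gene is found in most cells. For Mmp8 and Retnlg that share was 90.2% in HFD_EXE, 53.9% in HFD_sed and 94.6% in S, and the ratios are not comparable between libraries. Of the neutrophils with Mmp8, 376 of 393 in HFD_EXE, 69 of 80 in HFD_sed and 393 of 398 in S also held Retnlg.

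Other specific granule genes were divided in HFD_sed over S. Of 10 genes 9 were measured, 5 were called higher and 3 lower, and their median log2 ratio was 0.69, against -0.09 for all genes. Cybb stood at 388 CPM in HFD_sed against 82.5 CPM in S, the olfactomedin gene Olfm4 at 74.4 against 18.2 CPM and Chil1, a chitinase-like gene, at 401 against 150 CPM. Haptoglobin (Hp) was lower, at 475 CPM in HFD_sed against 1471 CPM in S. Olfm4 had no UMI in the 7 neutrophils with all of Camp, Ltf and Ngp, and its 31 HFD_EXE, 94 HFD_sed and 38 S UMIs lay in other cells. In HFD_EXE over HFD_sed 1 of 9 was higher, Hp at 1179 against 475 CPM, and 4 were lower, with a median of -0.46 against 0.15. In HFD_EXE over S none of 9 was higher and 2 were lower, Wfdc21 at 772 against 1583 CPM and Cd177 at 36.2 against 57.1 CPM, with a median of -0.32 against 0.04. Within cluster 7 the counts for HFD_sed over S were 3 higher and 1 lower of 8 measured, and for HFD_EXE over HFD_sed 0 higher and 4 lower of 9. Without the 7 cells with Camp, Ltf and Ngp the HFD_sed over S counts were 4 higher and 4 lower of 8 over all neutrophils, with a median of -0.07, and 1 higher and 3 lower of 8 in cluster 7, and those for HFD_EXE over HFD_sed were 2 higher and 4 lower of 8 and, in cluster 7, 0 higher and 2 lower of 8.

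Only some of the azurophil granule genes held enough UMIs to be measured. Of 10 genes, 5 were measured in HFD_sed over S, with 3 higher and 1 lower and a median of 0.64 against -0.09, or 2 higher and 1 lower without the 7 cells with Camp, Ltf and Ngp, but within cluster 7 the counts were 1 higher and 0 lower of 5. The higher genes were Cd63, at 445 CPM in HFD_sed against 129 CPM in S, Srgn, at 7216 against 4525 CPM, and Lyz2, the lysozyme gene that macrophages also express, at 1720 against 1104 CPM. In HFD_EXE over HFD_sed 0 of 4 were higher and 3 lower, led by Cd63 at 138 against 445 CPM, and in HFD_EXE over S 0 of 5 were higher and 1 lower, Ctsc at 18.4 against 54.7 CPM. Mpo had 0 UMIs in HFD_EXE neutrophils, 1 in HFD_sed and 0 in S.

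Of the 10 genes of the gelatinase granule and secretory vesicle, 1 was called higher in HFD_sed over S and 2 lower, with a median of -0.13. These counts lay near the shares over all genes measured in neutrophils, 15.9% higher and 17% lower. For HFD_EXE over HFD_sed the shares over all genes were 18.3% and 12.8%, and for HFD_EXE over S 12.1% and 6.95%. The same shares apply to the other gene lists counted over all neutrophils. Cd14, the lipopolysaccharide co-receptor, stood at 1100.5 CPM in HFD_sed against 256 CPM in S. Anxa1, the annexin A1 gene, stood at 254 against 555 CPM and Adam8, a membrane protease, at 213 against 442 CPM. In HFD_EXE over HFD_sed Anxa1 (416 against 254 CPM) and Adam8 (522 against 213 CPM) were higher and Cd14 (458 against 1100.5 CPM) and the metal transporter Slc11a1 (115 against 282 CPM) lower. In HFD_EXE over S 1 was higher, Cd14 at 458 against 256 CPM, and 2 were lower, Slc11a1 and the formyl peptide receptor Fpr2.

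Among 8 granulocyte transcription factors 7 were measured. In HFD_sed over S 1 was higher, Cebpb at 4479 against 1979 CPM, and 3 were lower, among them Cebpd at 245 against 568 CPM and Spi1, which encodes PU.1, at 562 against 1002 CPM. In HFD_EXE over HFD_sed Cebpd was higher, at 388 against 245 CPM, and none was lower. In HFD_EXE over S Cebpb was higher, at 4023 against 1979 CPM, and Spi1 lower, at 609 against 1002 CPM. Cebpe had 22 UMIs in HFD_EXE, 20 in HFD_sed and 38 in S neutrophils and was not called in any comparison. Within cluster 7 the HFD_sed over S counts were 1 higher and 0 lower of 7.

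Of 10 genes of neutrophil maturation and ageing, 2 were higher in HFD_sed over S and 4 lower. Among the lower genes, Csf3r stood at 1694 CPM in HFD_sed against 2779.7 CPM in S, the chemokine receptor gene Cxcr2 at 942 against 1562 CPM and Padi4, an arginine deiminase gene, at 48.3 against 105 CPM. In HFD_EXE over HFD_sed 5 were higher and 1 lower, and in HFD_EXE over S 2 were higher, Il1r2 at 712 against 335 CPM and Dusp1 at 8103 against 5351 CPM. Within cluster 7 the HFD_sed over S counts were 3 higher and 0 lower. Of 8 cell cycle genes only Mki67 and Pcna were measured in HFD_sed over S, and both were higher, Mki67 on 21 UMIs in HFD_sed against 7 in S.

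Outside neutrophils, S100a8, S100a9 and Retnlg were found at a like low level in many classes. In LSECs S100a8 stood at 65.5 CPM in HFD_EXE, 26.8 CPM in HFD_sed and 23.0 CPM in S, which is 0.149%, 0.0869% and 0.05001% of the level in neutrophils of the same library. S100a9 stood at 0.168%, 0.0942% and 0.0553% of its neutrophil level and Retnlg at 0.140%, 0.0848% and 0.0408%. In T cells the same percentages were 0.135%, 0.0973% and 0.0436% for S100a8, 0.141%, 0.109% and 0.0502% for S100a9 and 0.130%, 0.106% and 0.0387% for Retnlg. In B cells S100a8 stood at 0.170%, 0.104% and 0.0534%. In LSECs and T cells the 3 genes thus kept nearly the same ratio to neutrophils within a library. The S100a8 level in LSECs, T cells and B cells was highest in HFD_EXE. In HFD_EXE B cells S100a8 made up 36.6% of the summed S100a8 and S100a9 UMIs (31.7% to 41.7%), less than in neutrophils. A single B cell held 97 of these UMIs, and B cells with fewer than 2 neutrophil markers gave 52.7 CPM of S100a8. S100a8 made up 43.5%, 44.3% and 44.5% of the summed S100a8 and S100a9 UMIs in LSECs, against 46.4%, 46.2% and 47.0% in neutrophils. LSECs with fewer than 2 neutrophil markers gave 69.2, 26.7 and 22.5 CPM of S100a8. The neutrophil class held 3.43% of the UMIs of kept cells in HFD_EXE, 2.13% in HFD_sed and 2.71% in S. Single cells added to this level in places: 1 S dendritic cell held 266 of the 290 S100a8 UMIs of its class, and 1 S hepatocyte held 676 UMIs of S100a8 and S100a9 together. The part of free RNA in these values was not tested.

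In LSECs 4 of the 10 genes (Mmp8, Retnlg, S100a8 and S100a9) were called higher in HFD_EXE over HFD_sed and 1 lower (Chil3), where 8.56% of 14933 genes were called higher and 12.2% lower. In HFD_sed over S 1 was higher (Chil3) and 1 lower (Retnlg), where 14.7% of 14627 genes were called higher and 8.98% lower. The same 4 genes as over HFD_sed were higher in HFD_EXE over S and none was lower, where 9.34% of 15218 genes were called higher and 8.14% lower. S100a8 had a log2 ratio of 1.29 for HFD_EXE over HFD_sed (1.14 to 1.45) and 1.51 for HFD_EXE over S (1.38 to 1.65) in LSECs, where it was not called in neutrophils. The difference between the cell classes was not tested.

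Chil3 was chiefly a monocyte gene. It stood at 1004 CPM in HFD_EXE monocytes (973 UMIs in 85 cells), 956 CPM in HFD_sed monocytes (9052 UMIs in 1061 cells) and 2008 CPM in S monocytes (1819 UMIs in 78 cells), and monocytes held 87.7%, 93.8% and 80.8% of all Chil3 UMIs. The median monocyte held 4, 2 and 10 UMIs. In monocytes the log2 ratio was -1.07 for HFD_sed over S (-1.14 to -0.997), and the interval for HFD_EXE over S ran from -1.11 to -0.89. In LSECs Chil3 stood at 0.546 CPM in HFD_EXE, 5.86 CPM in HFD_sed and 0.993 CPM in S, and in T cells at 0.986, 6.26 and 0.166 CPM, with HFD_sed the highest in both. HFD_sed also had the most monocytes, and their part in these levels was not tested. Chil3 was also found in cluster 20, an unnamed cluster led by Ace, Eno3 and Krt80, at 77.1 CPM in HFD_EXE, 139 CPM in HFD_sed and 161 CPM in S.

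Mmp8 was also found in monocytes. It stood at 31.0 CPM in HFD_EXE (30 UMIs), 44.9 CPM in HFD_sed (425 UMIs) and 139 CPM in S (126 UMIs), and its log2 ratio was -1.63 for HFD_sed over S (-1.92 to -1.33) and -2.17 for HFD_EXE over S (-2.79 to -1.58). It was 4.20% of its neutrophil level in HFD_EXE monocytes, 16.9% in HFD_sed and 22.2% in S, where S100a8 was 0.141%, 0.161% and 0.0744%. Mmp8 was detected in 20.3% of HFD_EXE, 28.6% of HFD_sed and 58.8% of S monocytes with a Chil3 UMI, against 11.5%, 11.3% and 40.7% of monocytes without one. In monocytes 2 of the 10 genes were lower in HFD_sed over S and 1 higher (S100a9), where 11.7% of 11159 genes were called lower and 6.75% higher. None of 6 measured genes was called in HFD_EXE over HFD_sed, where 7.83% of 11172 genes were called higher and 4.65% lower. S100a8 and S100a9 were higher in HFD_EXE over S and Mmp8 and Chil3 lower, where 5.94% of 7928 genes were called higher and 7.19% lower.

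Mmp9 was found in lymphocytes. In T cells it stood at 54.2 CPM in HFD_EXE (220 UMIs), 20.2 CPM in HFD_sed (190 UMIs) and 103 CPM in S (622 UMIs), with a log2 ratio of -2.36 for HFD_sed over S (-2.60 to -2.12), 1.43 for HFD_EXE over HFD_sed (1.14 to 1.71) and -0.93 for HFD_EXE over S (-1.16 to -0.70). It was detected in 16.9%, 4.36% and 27.7% of T cells, against 1.02%, 0.891% and 0.872% of B cells. Cluster 11, a T cell cluster led by Il2ra, Il2rb, Klrb1c, Cxcr6 and Il4, stood at 121 CPM in HFD_EXE (206 UMIs, 378 cells), 105 CPM in HFD_sed (62 UMIs, 141 cells) and 242 CPM in S (601 UMIs, 403 cells). Within that cluster 32.3% of HFD_EXE, 28.4% of HFD_sed and 61.0% of S cells had a UMI, and the log2 ratio was -1.20 for HFD_sed over S (-1.60 to -0.82), 0.20 for HFD_EXE over HFD_sed (-0.21 to 0.64), while the interval for HFD_EXE over S ran from -1.23 to -0.77. Different T cell clusters stand for the class in the libraries, since cluster 6 held 77 of 786 HFD_EXE, 1602 of 2773 HFD_sed and 59 of 942 S T cells, and there Mmp9 stood at 15.1, 2.96 and 16.6 CPM on 6, 15 and 6 UMIs. In HFD_sed, cluster 12, led by Tnfrsf4, Ctla4 and Cd4, held more UMIs, 112 in 704 cells (52.8 CPM), against 4 in HFD_EXE and 11 in S, and its log2 ratio for HFD_sed over S was 2.01 (1.12 to 3.05). In natural killer and type 1 innate lymphoid cells Mmp9 stood at 18.1 CPM in HFD_EXE, 8.79 CPM in HFD_sed and 53.9 CPM in S. Over the T cells 2 genes were higher in HFD_sed over S (Chil3 and S100a9) and 2 lower (Mmp9 and Retnlg), where 10.3% of 13050 genes were called higher and 10.3% lower. Over HFD_sed, HFD_EXE had 4 higher (Mmp9, Retnlg, S100a8 and S100a9) and 1 lower (Chil3), where 9.38% of 12659 genes were called higher and 8.51% lower. In HFD_EXE over S 3 were higher (Retnlg, S100a8 and S100a9) and 1 lower (Mmp9), where 6.31% of 12228 genes were called higher and 5.12% lower.

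Lcn2 was also found in cholangiocytes, the bile duct cells. It stood at 501 CPM in HFD_EXE (34 cells), 198 CPM in HFD_sed (34 cells) and 613 CPM in S (32 cells), which is 58.1%, 19.6% and 56.0% of the neutrophil level, and was detected in 70.6%, 44.1% and 87.5% of the cells. Retnlg had 7, 1 and 1 UMIs there. Lcn2 in LSECs stood at 2.18, 2.04 and 1.51 CPM.

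In Kupffer cells S100a8 stood at 156 CPM in HFD_EXE (812 UMIs), 172 CPM in HFD_sed (644 UMIs) and 34.2 CPM in S (747 UMIs). Over cells with fewer than 2 neutrophil markers it stood at 121, 46.8 and 35.2 CPM, and the cell with the most held 341, 546 and 6 UMIs of S100a8 and S100a9 together. In the HFD_sed Kupffer class Camp had 62, Ltf 42 and Ngp 81 UMIs, most of them in the 2 cells described above. In Kupffer cells 9 of the 10 genes were called higher in HFD_sed over S and 1 lower (Mmp9), where 11.7% of 13686 genes were called higher and 6.33% lower. Without these 2 cells, an alternative chosen after seeing the data, 1 gene was called higher (Chil3 at 2.64) and 2 lower (Mmp9 at -3.18 and Retnlg at -1.71), where 11.7% of 13681 genes were called higher and 6.33% lower. S100a8 then stood at 40.3 CPM in HFD_sed, with a log2 ratio over S of 0.23 (-0.03 to 0.49). Cluster 5 held 1015 HFD_EXE, 684 HFD_sed and 141 S Kupffer cells and cluster 4 held 29, 75 and 2019, so different clusters stand for the class in the libraries.

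**Figure D5:**
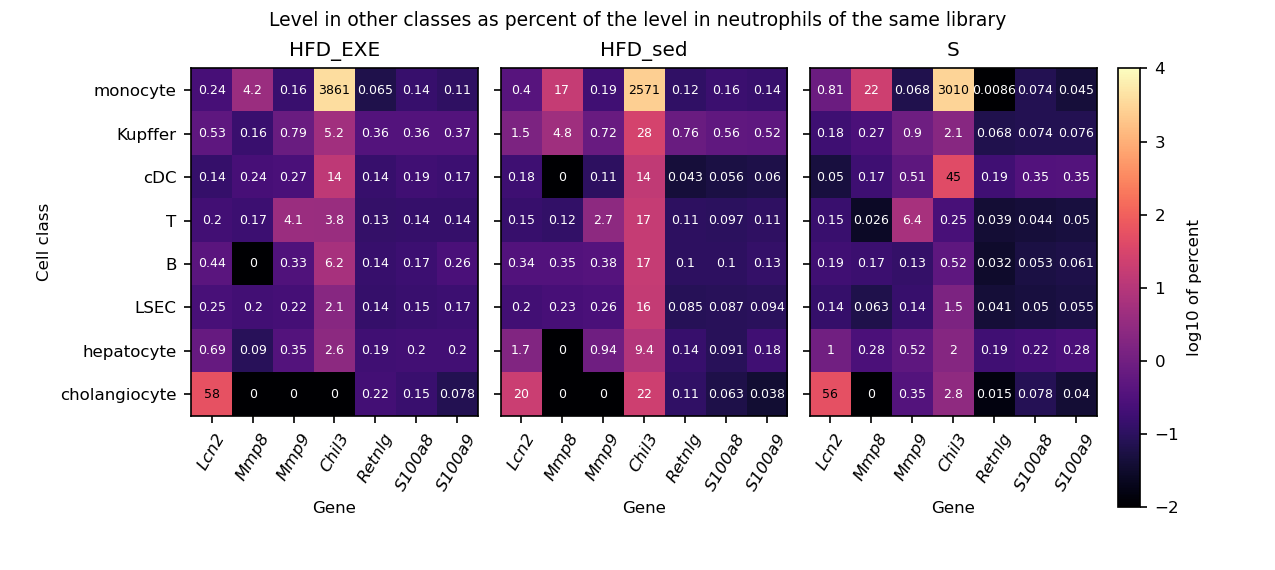
Level of 7 genes in 8 other cell classes as percent of the level in neutrophils of the same library (numbers), coloured by its log10, with 1 panel per library (HFD_EXE, HFD_sed, S). Chil3 in monocytes (3861%, 2571% and 3009.7%), Lcn2 in cholangiocytes (58%, 20% and 56%) and Mmp9 in T cells (4.1%, 2.7% and 6.4%) stand out from the low percentages of Retnlg, S100a8 and S100a9, and a 0 marks no UMI.

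Genes of receptors that released granule proteins act on were measured in the liver cells around the neutrophils. In LSECs 8 of 9 were measured, with 1 higher and 1 lower in HFD_sed over S, Emb, a receptor of the S100 proteins, at 10.1 against 2.23 CPM and the purinergic receptor P2rx7 at 19.2 against 30.0 CPM. Tlr4, the receptor of calprotectin and lipopolysaccharide, stood at 25.1 CPM in HFD_EXE, 27.6 CPM in HFD_sed and 23.2 CPM in S LSECs. In Kupffer cells Tlr4 stood at 43.2, 58.3 and 65.8 CPM and was called lower in HFD_EXE over S at -0.61 (-0.82 to -0.40), where 8.94% of 13776 genes were called lower. Lrp1, an endocytic receptor that takes up lactoferrin and Mmp9, stood at 533 CPM in HFD_sed against 829 CPM in S Kupffer cells.

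Among the metalloproteinase inhibitors, Timp3 was found in LSECs at 1453 CPM in HFD_EXE, 1226 CPM in HFD_sed and 1332 CPM in S, with no call. Timp2 in LSECs stood at 56.4 CPM in HFD_EXE (1756 UMIs), 3.81 CPM in HFD_sed (56 UMIs) and 23.2 CPM in S (583 UMIs), with log2 ratios of 3.89 for HFD_EXE over HFD_sed (3.50 to 4.30), -2.60 for HFD_sed over S (-3.03 to -2.21) and 1.28 for HFD_EXE over S (1.15 to 1.42). LSECs of the 3 libraries lay mostly in different clusters, cluster 0 in HFD_EXE, cluster 2 in HFD_sed and cluster 1 in S. Of 5 measured inhibitors in LSECs, 3 were higher and 1 lower in HFD_sed over S. In neutrophils 2 of 6 were measured, and Timp3 was higher in each comparison, at 119 CPM in HFD_EXE, 49.1 CPM in HFD_sed and 28.8 CPM in S. The LSEC markers in neutrophils, given above, were highest in HFD_EXE too, and their part in the Timp3 level was not tested. Timp1, the classical inhibitor of Mmp9, had no UMI in neutrophils of any library.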

How the data were processed

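Single cells of mouse liver from 3 libraries were analysed. Per the file headers, the deposited matrices hold counts, whole UMIs per gene and barcode, as written by the authors' run of Cell Ranger 6.1.2 with build GRCm39, per the submitters' processing notes. Whether intronic reads were counted is not given in the sources used here. Cells with at least 500 UMIs, 300 genes and a mitochondrial share under 15% were kept, and doublets were called with Scrublet at a shared threshold, since its automatic one marked 0 cells in HFD_EXE. Leiden clustering (scanpy 1.11.5, leidenalg 0.10.2, Python 3.11.15) used 2000 variable genes, 30 principal components, 15 neighbours and resolution 1, with the 10 genes left out. A cluster took a name from fixed markers of 19 cell types, none of them a member. Cluster 14, led by Mmp12, was kept apart from the Kupffer class after its leading genes were seen. UMIs were summed per class and library. CPM carry exact Poisson, shares Clopper-Pearson and ratios exact conditional binomial 95% intervals (SciPy 1.17.1). The ratio intervals were tried only on simulated independent Poisson counts, the model that they assume. Counts gathered in few cells, as for Camp, Ltf and Ngp, were not simulated, so the coverage there is not known. TMM factors came from edgeR 4.0.16 in R 4.3.3, as an alternative only. Other alternatives changed the clustering, filters, neutrophil definition, scaling and depth. No column of the files was left unmapped (0 unused). UMIs come from 3′ ends, so levels were not compared between genes. Promoters came from RefSeq. The genes named beside the members are those of 8 lists, at most 4 per list and comparison, taken by the interval bound nearest to no change, and the 5 that follow Camp, Ltf and Ngp. Genes named in the cells with all 3, and receptor genes without a call, were picked after their values were seen. The members and lists were chosen with earlier results of these data known. Some genes that these rules pick are not reported here.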

Additional observations from a re-analysis of the deposited data

Results flagged for a closer look

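In 11 cases, each a gene, a comparison and another class, the call in that class ran opposite to the call in neutrophils. The difference was not tested in any of them. Chil3 for HFD_sed over S had log2 ratios of 5.24 in T cells, 2.56 in LSECs, 2.88 in Kupffer cells and 4.17 in B cells, against -0.84 in neutrophils. Retnlg for HFD_EXE over S had log2 ratios of 1.06 in T cells, 1.09 in LSECs, 1.71 in Kupffer cells and 1.45 in B cells, against -0.70 in neutrophils. A single HFD_EXE Kupffer cell held 55 of the 150 Retnlg UMIs of its class, and no S Kupffer cell held more than 2. The ratio without that cell was not computed. Retnlg for HFD_sed over S stood at 1.05 in Kupffer cells, against -2.42 in neutrophils. Of the 68 Retnlg UMIs in HFD_sed Kupffer cells, 36 and 22 lay in the 2 cells that also held Camp, Ltf and Ngp, and without these cells the log2 ratio was -1.71 (-2.80 to -0.80), so it no longer ran opposite. Mmp8 stood at 2.92 in Kupffer cells for HFD_sed over S, against -1.24 in neutrophils, and at -3.48 for HFD_EXE over HFD_sed, against 1.47 in neutrophils. Of the 48 Mmp8 UMIs in HFD_sed Kupffer cells, 21 and 15 lay in the same 2 cells, and without them the log2 ratios were 0.93 and -1.48, with neither called. For Chil3 the Kupffer log2 ratio without them was 2.64. Chil3 UMIs in HFD_sed T and B cells numbered 59 and 20, and in S 1 and 1.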

How the results depend on the processing

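No paired analysis was possible because each group has 1 library. For each comparison all 10 genes kept their sign and call under resolutions of 0.5 and 2, with the members kept in the clustering, with no minimum count and after subtracting the level in B cells. TMM and median-of-ratios scaling kept every call but 1 of 10 in HFD_EXE over HFD_sed. With doublets kept, S100a8 in LSECs was 0.170% (HFD_EXE), 0.0984% (HFD_sed) and 0.0582% (S) of its neutrophil level, and without LSECs that held 2 or more neutrophil markers it was 0.158% in HFD_EXE. With neutrophils taken by a gate of at least 3 markers, they made up 8.60%, 6.75% and 8.69% of cells, the S100a8 percentages were 0.371%, 0.286% and 0.129%, Chil3 for HFD_sed over S turned to 1.91, and 5 genes were higher in HFD_EXE over HFD_sed. After thinning, 1 gene was higher in HFD_EXE over S. The shares called over all genes were not computed with the marker gate or after thinning, so these counts cannot be set against them. With at least 2 UMIs of each of Camp, Ltf and Ngp asked for in thinned cells, S had 0 such neutrophils.

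The remaining alternatives were chosen after seeing the data. Without the neutrophils holding all of Camp, Ltf and Ngp, 1 gene was higher and 7 lower in HFD_sed over S, 5 higher and 1 lower in HFD_EXE over HFD_sed, and 0 higher in HFD_EXE over S. Ngp, with 0 UMIs left in HFD_sed, turned from higher to lower for HFD_sed over S and from lower to higher for HFD_EXE over HFD_sed. Camp then turned to 0.92 for HFD_EXE over HFD_sed and Ltf to -0.14 for HFD_EXE over S. In cluster 7 alone 1 gene was lower in HFD_sed over S, where Chil3 turned to 0.48, and 1 was higher and 5 lower in HFD_EXE over HFD_sed. In cluster 7 without these neutrophils 0 were higher in HFD_sed over S, 0 lower in HFD_EXE over HFD_sed and 0 higher in HFD_EXE over S. In Kupffer cells without the 2 cells with all of Camp, Ltf and Ngp, 1 gene was higher and 2 lower in HFD_sed over S, against 9 and 1 with them, and 4 higher and 1 lower in HFD_EXE over HFD_sed, against 2 and 6. For HFD_EXE over HFD_sed 6.93% of 11752 genes were called higher and 8.16% lower without the 2 cells. With them the shares were 6.87% and 8.18% of 11758 genes. In cluster 21 alone 0 were higher and 2 lower in HFD_sed over S, 1 higher and 1 lower in HFD_EXE over HFD_sed, and 0 higher in HFD_EXE over S. There Ltf turned to -1.10, 0.16 and -0.94 in these 3 comparisons and Retnlg to -0.15 for HFD_EXE over HFD_sed. The cause of these shifts was not tested, beyond the fewer cells in each. A bulk level of a gene cannot separate the share of cells from the RNA per cell, and 1 to 5 cells per library hold most UMIs of Camp, Ltf and Ngp.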
